A study of Mus musculus with 2 samples.

Results

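The 8 genes examined here carry the making, clearing and sensing of dopamine and the related catecholamines. They are Th and Ddc, whose enzymes build dopamine, Slc6a3, which encodes the dopamine transporter, Maoa and Maob, whose enzymes break monoamines down, and the receptor genes Drd1, Drd2 and Drd4. They were set beside EGR1 ChIP-seq of mouse frontal cortex, in which an antibody against the transcription factor EGR1 pulls down the DNA it binds. A peak was assigned to a gene when its centre lay in the gene body or within 10 kb of one of its transcription start sites (TSSs). By this rule 1 of the 8 genes, Maoa, had a peak, and its peak was 1 of 12014 in the deposited list. For comparison, 39.6% of the 21938 protein-coding genes of the annotation had a peak by the same rule (95% Wilson interval 39.0 to 40.3%).

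The mice were 129SvEv/C57BL/6N F1 hybrid males at 6 weeks, with 129SvEv mothers and C57BL/6N fathers, and the labels name no engineered allele and no treatment. Frontal cortices of 4 to 5 mice were pooled for each of 2 ChIP experiments, and both experiments were merged into 1 peak list, so there was a single group and no comparison of conditions. Input DNA of the same tissue was the control in the experiment, and no processed file of it was analysed here. The list gives each peak's position on mm10 and its irreproducible discovery rate (IDR), a measure of how well the ranks of a peak match between both experiments in which lower is better, and the upper limit for inclusion was an IDR of 2%. It holds no read counts, so the depth at any gene is unknown and no value below has an error between replicates. A gene without a peak is one where nothing passed that limit, and weak binding and no binding cannot be told apart. Whole cortex was used, so binding in fewer cells and less binding per cell cannot be told apart either.

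EGR1 is a zinc finger protein whose gene is switched on within minutes of neuronal activity, and it binds GC-rich DNA with the consensus GCGTGGGCG or GCGGGGGCG. Dopamine is made from tyrosine by tyrosine hydroxylase (Th), the rate-limiting step, and by aromatic amino acid decarboxylase (Ddc), and the transporter (Slc6a3) takes it back up into the terminal. The cell bodies of most dopamine neurons that reach the frontal cortex lie in the midbrain, whereas dopamine receptors are made by cortical neurons. Monoamine oxidases A and B sit on the outer mitochondrial membrane. The A form prefers serotonin and noradrenaline, the B form prefers phenylethylamine, and both degrade dopamine.

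The sequence that carries the results is the whole Maoa peak, with the 9 bases closest to the EGR1 consensus in capitals. The peak lies at chrX:16618431-16618551 and is printed on the plus strand. Its closest site is printed again from the minus strand (chrX:16618478-16618507), on which it reads as the consensus is written. Both are the mm10 reference sequence. Chromosome X of these males came from the 129SvEv mother, and differences between strains were not examined.
Maoa peak: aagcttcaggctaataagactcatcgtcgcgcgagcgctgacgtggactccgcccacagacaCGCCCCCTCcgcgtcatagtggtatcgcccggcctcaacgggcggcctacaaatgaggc
Maoa peak, closest site: gacgcgGAGGGGGCGtgtctgtgggcggag

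Maoa lies on chromosome X from 16619698 to 16687818 on the plus strand and has 1 annotated transcript. The peak centre was 1207 bp upstream of its only annotated TSS, in sequence that no annotated gene covers, and no TSS of another gene was nearer. The IDR of the peak was 2.7e-06, against a median of 0.000321 over all peaks, which placed it at rank 3130 of 12014 with 26.0% of the peaks lower. Among the 164 peaks on X it ranked 42, with 25.0% lower. It was narrow, at 121 bp against a median width of 250 bp, and 2.39% of the peaks on assembled chromosomes were as narrow or narrower. Its neighbours on X are given next, and the usual spacing of peaks on X was not measured. The next peak towards the start of the chromosome was 2963349 bp away and the next towards its end, whose nearest TSS was that of the mitophagy receptor gene Fundc1, was 953847 bp away.

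The share of genes with a peak was lower on X than on the autosomes. Of 20807 autosomal genes 8546, or 41.1% (95% Wilson interval 40.4 to 41.7%), had a peak. On X, 142 of 948 protein-coding genes, or 15.0% (95% Wilson interval 12.8 to 17.4%), had a peak by the rule. Male cells hold 1 copy of X, and the part of copy number in this share was not tested. A position close to a TSS was common, since 63.6% of all peaks and 75.6% of X peaks had a centre within 2 kb of one. The position of the Maoa peak was less so: 5.15% of peaks had a centre 1000 to 2000 bp from the nearest TSS.

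**Figure D1:**
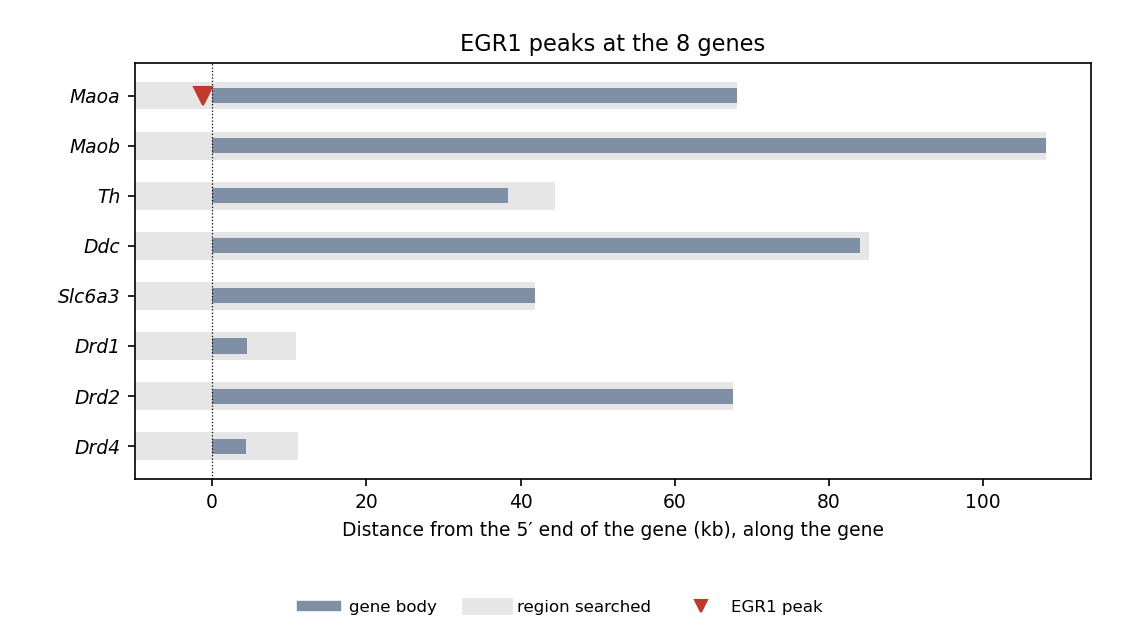
Each row is 1 of the 8 genes, drawn along its own direction of transcription, with distance from its 5′ end in kb on the horizontal axis, the gene body in blue and the region searched for peaks in grey. The red triangle marks the only EGR1 peak, 1207 bp upstream of Maoa, and no other region searched holds one.

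The Maoa peak was rich in CpG dinucleotides, the sites of DNA methylation. It held 14 CpGs in 121 bp, and its CpG ratio was 1.19, where the ratio divides the CpGs observed by those that its bases would form at random. The median over all peaks was 0.60 (quartiles 0.312 and 0.825), and the ratio was above that of the Maoa peak in 0.871% of them. Its GC content was 62.8%, close to the median of 60.4% over all peaks. In flanking windows of equal width, placed 5 kb away on both sides, the CpG ratio was 0 and the GC content 29.8%, and 85.4% of all peaks were above their flanks in CpG ratio. No base of the peak was repeat-masked, as in 45.6% of peaks, and each of its 91 words of 31 bp occurred once in the assembled chromosomes.

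CpG islands were marked around each TSS as runs of 200-bp windows with at least 50% GC and a CpG ratio of at least 0.6. At Maoa the peak lay within an island of 898 bp, from position -1451 to -554 relative to the TSS (negative is upstream), with 64 CpGs and a CpG ratio of 0.765. A separate island of 351 bp covered the TSS itself, from -100 to 250, with 18 CpGs and a ratio of 0.622. The peak was therefore in the upstream island, and the island at the annotated TSS held none.

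**Figure D2:**
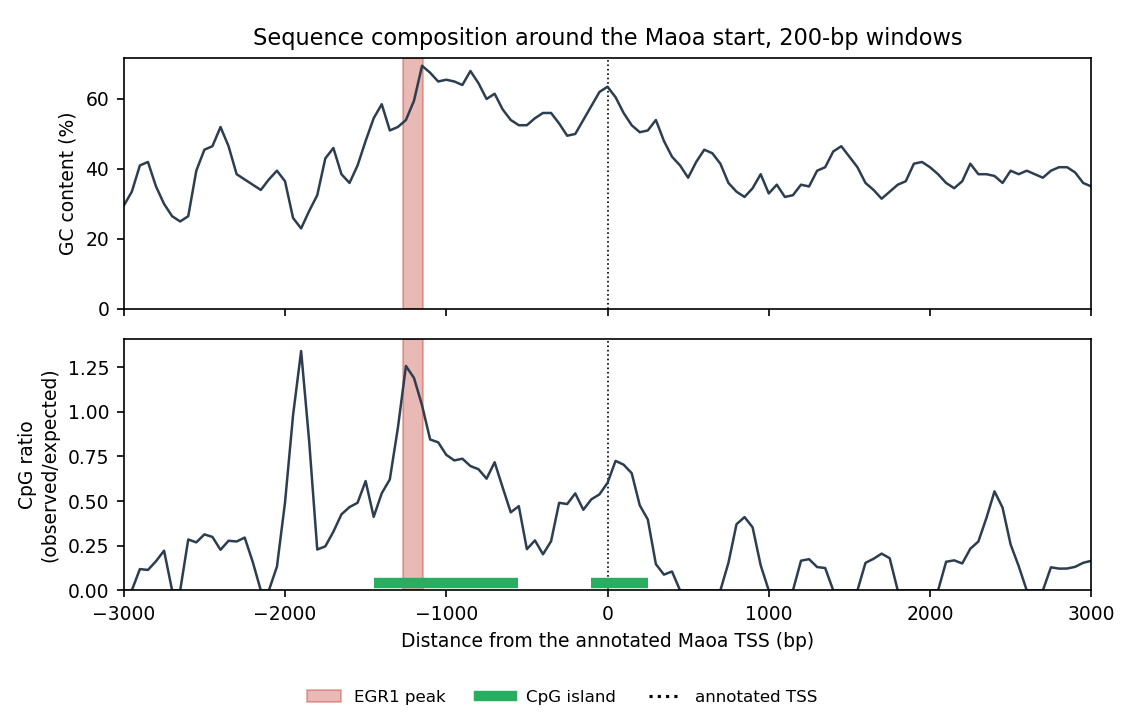
GC content in percent (upper panel) and CpG ratio (lower panel) in 200-bp windows from 3 kb upstream to 3 kb downstream of the annotated Maoa TSS, with the EGR1 peak in red and CpG islands in green. The peak sits at the upstream side of the 898-bp island, where the CpG ratio is high, and the sharp rise in ratio left of it lies in sequence of low GC content that was not marked as an island.

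The Maoa peak held no exact EGR1 consensus, which 16.6% of all peaks and 31.1% of X peaks held on either strand. Its closest site, GAGGGGGCG at chrX:16618493-16618501 on the minus strand, lay 6 bp from the peak centre. It differed from GCGGGGGCG by C2A, counted from 1 at the 5′ end of the consensus, and 69.8% of peaks had a site with at most 1 mismatch. Across the assembled chromosomes GAGGGGGCG occurred 9554 times, of which 10.6% lay in a peak. Within 2 kb of a TSS 862 of 3611 copies, or 23.9%, lay in a peak, against 40.6% for GCGGGGGCG and 48.0% for GCGTGGGCG. The 9 bases in the Maoa peak were thus found in peaks at a lower share than either exact form.

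Letters of other known elements were also present in the peak. The GC box GGGCGG, which SP factors and other zinc finger proteins bind, occurred at positions -8 and 44 bp from the peak centre. It was found on either strand in 47.1% of peaks, counting the middle 121 bp of each. The core TGACG of the cAMP response element, bound by CREB, occurred at -20 and 15 bp, and 11.3% of peaks held it. The full element TGACGTCA, searched for in the peak and 200 bp to each side, lay outside the peak, at -195 bp from its centre. It was in the middle 121 bp of 0.813% of peaks and in 1.79% of RefSeq promoters. Both are narrower stretches than the one searched at Maoa, so these shares are not a like-for-like comparison for that site. None of these matches shows that a factor was bound.

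Maob, the gene of the other monoamine oxidase, lies next to Maoa on chromosome X, from 16709282 to 16817366 on the minus strand. It had no peak by the rule, and the nearest was the Maoa peak, 198784 bp from the closest Maob TSS. Within 1 Mb of either gene the list held 2 peaks, and chromosome X as a whole held 164 of the 12014 peaks. Whether 2 is few for a stretch of X was not tested.

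The genes of dopamine synthesis and uptake had no peak near them. The nearest peak to a TSS of Th, on chromosome 7 from 142892752 to 142931128, was 221503 bp away, although 17 peaks lay within 1 Mb of the gene. For Ddc, on chromosome 11 from 11814101 to 11898144, it was 445824 bp away, the longest distance of the 8 genes, and 4 peaks lay within 1 Mb. For Slc6a3, on chromosome 13 from 73536747 to 73578672, it was 54048 bp away, the shortest of the genes without a peak. That peak (IDR 0.0035) was nearest to the TSS of Lpcat1, a lysophospholipid acyltransferase gene, at 10948 bp from it.

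The dopamine receptor genes also had none. Drd1, on chromosome 13 from 54051183 to 54055705, encodes a receptor that raises cyclic AMP, and its nearest peak was 98324 bp away (IDR 2.63e-06), with 22 peaks within 1 Mb. Drd2, on chromosome 9 from 49340627 to 49408177, encodes a receptor that lowers cyclic AMP, and its nearest peak was 111362 bp away (IDR 0.00449). Drd4, on chromosome 7 from 141292006 to 141296464, encodes another receptor of that class, and its nearest peak, at 63519 bp (IDR 6.95e-06), lay 297 bp from a TSS of Phrf1. Over the 7 genes without a peak the nearest peak was 54048 to 445824 bp away, with a median of 111362 bp. Maoa, at 1207 bp, was the only gene inside the 10 kb limit, and the closest gene outside it was Slc6a3 at 54048 bp, so no gene was near the limit.

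The receptor, transporter and Th promoters hold sites close to the consensus, and these are printed for comparison with the site in the Maoa peak. The share of all promoters with a site this close is not given, so the sites cannot be called unusual. Promoters were taken from RefSeq (GRCm38.p6), from 250 bases before to 50 after each start, and 9 promoters of 7 of the 8 genes were matched. Maob was not matched. None of the 9 promoters of these 7 genes held an exact consensus, as against 3.47% of all 32851 promoters, and this count says nothing of Maob. Each line gives 29 bases on the strand of the gene with the closest site in capitals, which reads as its reverse complement for Th and Drd2. They lie at chr7:142900116-142900144 on the minus strand (Th), chr13:73536646-73536674 on the plus strand (Slc6a3), chr13:54054893-54054921 on the minus strand (Drd1), chr9:49340338-49340366 on the plus strand (Drd2) and chr7:141291922-141291950 on the plus strand (Drd4).
Th: tctcgtccgtCGCCCTCGCtctgtgccca
Slc6a3: cccaagtggtGCAGGGGCGctgcccagcc
Drd1: cctcctggggGCGGGGGCAgcaatctgta
Drd2: agggtgacccCGCCCCCTCcctcctgcgc
Drd4: agaaattcaaGCCGGGGCGgggcggggct

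Drd2 carried, at -51 bp from its RefSeq start, the same 9 bases as the Maoa peak, GAGGGGGCG (C2A), and had no peak. That start lies upstream of position 49340627, the start from which the distance of Drd2 to a peak was measured. Th carried GCGAGGGCG (T4A) at -135 bp and GCGGGGGTG (C8T) at -118 bp, both inside the annotated gene span, since other Th transcripts start further upstream, and it was the only gene of the 7 whose promoter held the full cAMP response element TGACGTCA. Slc6a3 had 3 sites with 1 mismatch, GCAGGGGCG (G3A) at -87 bp, GGGTGGGCG (C2G) at -61 bp and TCGGGGGCG (G1T) at -18 bp. Drd1 had GCGGGGGCA (G9A) at -127 bp from the second of its starts, which lies inside the gene, and Drd4 had GCCGGGGCG (G3C) at -82 bp. Copies of these 9-base words within 2 kb of a TSS lay in a peak at a lower share than exact copies. For the 3 words of Slc6a3 it was 7.72% (GCAGGGGCG), 14.1% (GGGTGGGCG) and 19.7% (TCGGGGGCG). For those of Th it was 12.9% (GCGAGGGCG) and 19.7% (GCGGGGGTG). It was 7.93% for GCCGGGGCG of Drd4, 11.3% for GCGGGGGCA of Drd1 and 23.9% for GAGGGGGCG of Drd2. The closest sites in the promoters of Maoa and Ddc had 2 or more mismatches, so at Maoa the site in the upstream peak was the closer one.

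Promoters of the 7 genes fell into classes of CpG ratio in which peaks were common and rare. Over all RefSeq promoters, 21.2% had a peak centre within 2 kb of the start. The share was 2.65% for promoters with a CpG ratio under 0.2 and 7.03% for those from 0.2 to 0.4. It was 20.3% from 0.4 to 0.6, 41.5% from 0.6 to 0.8 and 48.2% at 0.8 and over. Both Ddc promoters (0.164 and 0.228) and the second Drd1 promoter (0.230) were in the classes with few peaks. Th (0.484) and Drd4 (0.595) were in the middle class. Maoa (0.602), Slc6a3 (0.620), Drd2 (0.621) and the first Drd1 promoter (0.740) were in the class where 41.5% had a peak, and of these 4 promoters 1, that of Maoa, had one. Those of Slc6a3 and Drd2 had nearly the same CpG ratio as Maoa at the start and no peak. The Maoa peak lay in the upstream island, outside the promoter bases to which the ratio of 0.602 refers. An island covered a TSS of Maob (386 bp), Slc6a3 (873 bp), Drd1 (513 bp), Drd2 (854 bp) and Drd4 (765 bp) as well, so an island at the start was shared by genes with and without a peak.

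**Figure D3:**
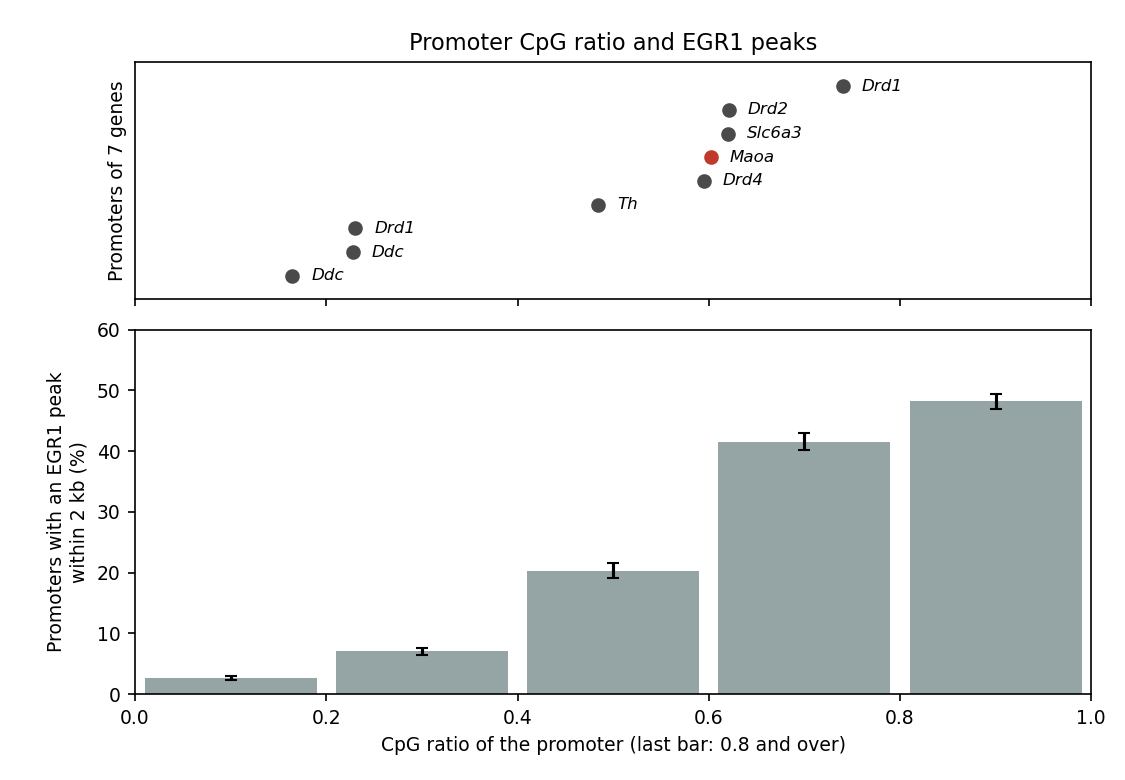
The upper panel shows the CpG ratio of the 9 RefSeq promoters of the 7 matched genes, with Maoa in red as the only one with an EGR1 peak within 2 kb and the others in grey. The lower panel shows the percentage of all RefSeq promoters with a peak within 2 kb in each class of CpG ratio, with 95% Wilson intervals as bars, from 2.65% in the lowest class to 48.2% in the highest.

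The rest of the pathway was taken from 6 lists of 32 genes. Of these, 14 had a peak by the rule, with 23 peaks in all, which as a share is near that of all protein-coding genes. The lists differed in how many of their genes had one, and each is small. The share to read every list against is the 39.6% of all protein-coding genes, and differences between lists were not tested. Of the 23 peaks, 17 were nearest to a TSS of the listed gene itself, 7 held an exact consensus and 22 had a CpG ratio above their flanks. Their median CpG ratio was 0.661 and the highest 1.06, below the 1.19 of the Maoa peak, and 3 of the 23 had a lower IDR than the Maoa peak.

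Tetrahydrobiopterin is the cofactor that tyrosine hydroxylase needs, and 3 of the 5 genes for its synthesis and recycling had a peak at their start. These were Gch1, the entry enzyme of the pathway, at 290 bp from a TSS (IDR 0.0159), Pts, the next enzyme, at 7 bp (IDR 7e-08), and Pcbd1, a recycling enzyme, at 28 bp (IDR 3.02e-06). The peaks of Pts and Pcbd1 held the exact consensus. Spr and Qdpr, the reductases of the pathway, had none.

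Of 5 genes of noradrenaline synthesis and of monoamine transport, 2 had a peak. Dbh, which turns dopamine into noradrenaline, had one 253 bp from a TSS (IDR 0.00156), without an exact consensus. Slc18a1, a vesicular monoamine transporter gene, had 2, of which one (IDR 6.08e-09) lay 17 bp from a TSS of the neighbouring proton pump gene Atp6v1b2. Slc18a2, the vesicular transporter of brain neurons, had none, and neither had the noradrenaline transporter gene Slc6a2 or Pnmt, which makes adrenaline. The other dopamine receptor genes, Drd3 and Drd5, had none, with the nearest peak at 201247 and 98914 bp. Together with Drd1, Drd2 and Drd4, described above, 0 of the 5 dopamine receptor genes had a peak, against 39.6% of all protein-coding genes. With so few genes the difference was not tested.

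Of 7 genes that act below the receptors, 6 had a peak, against 39.6% of all protein-coding genes, in a list chosen with earlier results known. The 5 with the lowest IDR were the following. Caly, whose product binds the D1 receptor, had a peak 96 bp from a TSS (IDR 5.95e-08). Gnal, the G protein subunit that couples D1 receptors to adenylyl cyclase in striatum, had one 9 bp from a TSS (IDR 2.73e-06). That peak of Gnal held the exact consensus. Ppp1r1b, which encodes the phosphatase inhibitor DARPP-32, had 4 peaks by the rule, the closest 108 bp from a TSS (IDR 2e-05), and of the others one was nearest to Neurod2 and one to Stard3. Gng7, a G protein subunit, had 2, with the lower IDR at 4.42e-05, and Adcy5, an adenylyl cyclase, had one at 408 bp (IDR 0.000284) with the exact consensus. Rgs9, a regulator of G protein signalling, had none within 10 kb, and its nearest was 127804 bp away.

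Among 8 adrenoceptor genes 2 had a peak by the rule. Adrb1 had 2 of its own, 197 and 3672 bp from a TSS, and the peak of Adrb3 lay 31 bp from a TSS of the translation regulator gene Eif4ebp1. Adra1a, Adra1b, Adra1d, Adra2a, Adra2b and Adra2c had none. Of 5 genes for transcription factors of dopamine neurons, 1, Lmx1b, had a peak (IDR 0.000314), which lay inside the gene and 39042 bp from its closest TSS. Nr4a2, Pitx3, En1 and Foxa2 had none, and the nearest peak to a TSS of Nr4a2 was 998376 bp away.

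**Figure D4:**
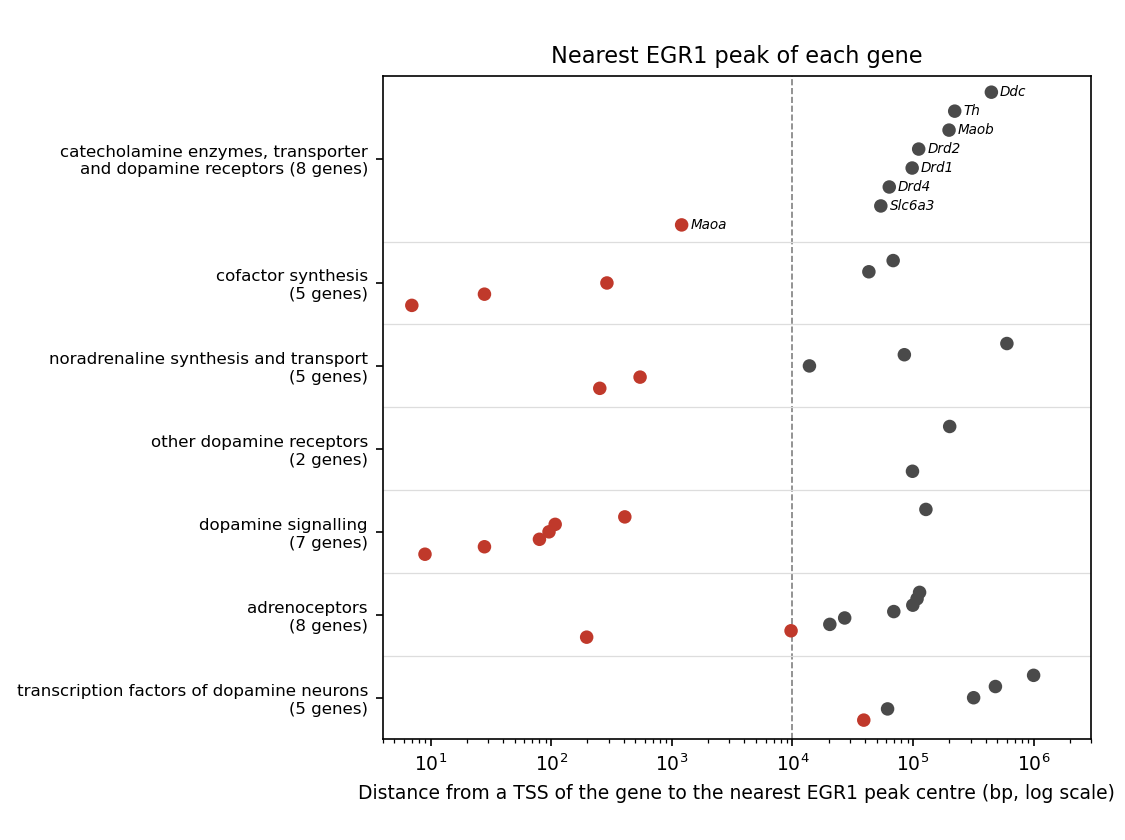
Each point is a gene, placed on a log scale by the distance in bp from its closest TSS to the nearest EGR1 peak centre, in rows for the 8 genes and the 6 pathway lists, and the dashed line marks 10 kb. Red points had a peak by the rule and grey points had none. In the top row Maoa stands at 1207 bp and the other 7 genes between 54048 and 445824 bp. Of the 7 dopamine signalling genes 6 stand within 1 kb, and differences between these small lists were not tested.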

How the data were processed

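EGR1 ChIP-seq of frontal cortex was performed in 2 experiments. Reads of 100 bp were trimmed and aligned to mm10 by the authors with Bowtie, and peaks from SPP were retained up to an IDR of 2%. The submitters' notes name Bowtie2 2.2.9 and bedtools 2.26.0. The deposited list gives positions and the IDR, read like a q-value, of peaks merged over both experiments.

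Positions were read as in BED files, which the sources do not state, and printed counted from 1. Genes came from GENCODE release M21 and sequences from GRCm38.p6 and RefSeq promoters. Sequence was read for 11938 peaks on assembled chromosomes, and 76 on scaffolds were left out of it. Shares have 95% Wilson intervals, which cover counting error only. No test was run, since 1 merged list has no replicates. The 8 genes and the pathway lists were chosen with earlier results of these data known. A gene of the lists and a sequence are not reported here. The genes named are those 8, the gene of the TSS nearest to each of their peaks, and of each list the genes with a peak (where over 5, the 5 with the lowest IDR) and those without. Classes of promoter CpG ratio and counts of single 9-base words were added after the data were seen. Distances, the gene body, overlap, transcripts, IDR, motif and flanks were varied.

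The tools were samtools 1.23.1 and Python 3.11.15 with matplotlib 3.10.9, pandas 2.3.3, numpy 2.4.6 and scipy 1.17.1. On simulated data, 400 of 400 motif states and 200 of 200 intervals were recovered.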

Additional observations from a re-analysis of the deposited data

How the results depend on the processing

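Maoa was the only one of the 8 genes with a peak within 2, 5, 20 and 50 kb, within 10 kb of a TSS alone, by overlap, with basic transcripts, at an IDR of 0.01 or less and in the 50% of peaks with the lowest IDR. Distances of 50 and 100 kb were added after the data were seen. At 50 kb, 58.7% of protein-coding genes and 18 pathway genes had a peak. At 100 kb, 4 of the 8 genes had 6 peaks, against 70.1% of protein-coding genes and 24 pathway genes. With the 50% of peaks with the lowest IDR, 25.8% of protein-coding genes and 9 pathway genes had a peak. A limit of 1 kb or 500 bp in place of 2 kb left 0 peaks close to the Maoa TSS, since the centre is 1207 bp away. Allowing 1 mismatch gave 1 peak with the EGR1 consensus in place of 0. No paired analysis was possible because both experiments were merged into 1 list, and no replicate could be left out for the same reason. With no read counts, a gene without a peak cannot be given an upper limit of binding.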
